A study of Homo sapiens with 8 samples.

Results

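The genes described here are 10 components of the mammalian circadian clock: the period genes PER1, PER2 and PER3, the cryptochromes CRY1 and CRY2, the REV-ERB nuclear receptors NR1D1 and NR1D2, the repressors BHLHE40 and CIART, and the activator CLOCK. They were chosen by name from the 19158 genes of each library, and all 10 were found. RNA was measured in A549, an established epithelial line from a human lung adenocarcinoma, labelled wild type. The 4 untreated wells, whose labels name no vehicle, were compared with 4 wells given 1 µM dexamethasone, a synthetic glucocorticoid, for 48 h. Each well gave 1 library, replicates are numbered 1, 3, 4 and 5 in either group, and the batch label was the same throughout. The wells are cultures of 1 line at 1 time, so p-values measure the spread between wells.

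In the clock, CLOCK pairs with BMAL1 (or with its relative BMAL2, while NPAS2 can stand in for CLOCK) and drives genes that carry an E-box, a short DNA element. Among those genes are PER and CRY, whose proteins return to the nucleus and repress CLOCK and BMAL1. NR1D1 and NR1D2 repress BMAL1 in a linked loop, BHLHE40 competes for E-boxes, and CIART, also called CHRONO, binds BMAL1 and represses it. Glucocorticoids set the phase of peripheral clocks, a short pulse of dexamethasone is used to align the clocks of cultured cells, and PER1 is known as a direct target of the glucocorticoid receptor.

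The promoter letters of these genes are shown first, because the E-box is the element through which the loop acts. The 250 bases before each RefSeq start (GRCh38.p14) were searched on both strands for the E-box CACGTG and for the related CACGTT, and each hit was compared with all promoters of that length. CACGTG was present for 4 of the 10 genes (PER1, NR1D2, BHLHE40 and CIART), against 7.73% of 27305 RefSeq genes. CACGTT was present for 5 others (PER2, CRY1, CRY2, CLOCK and NR1D1), against 5.53%. Together these letters were found for 9 of the 10 genes, against 12.7% of all genes, and for every one except PER3. The 2 motifs share their first 5 letters but no hit was counted under both. Each site is printed 5′ to 3′ on the strand of its gene, with the matched letters in capitals, at chr17:8152560-8152589 (PER1, minus), chr3:4979187-4979216 (BHLHE40, plus), chr17:40100740-40100769 (NR1D1, minus), chr12:107093621-107093650 (CRY1, minus) and chr11:45847275-45847304 (CRY2, plus).
PER1: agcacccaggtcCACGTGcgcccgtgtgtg
BHLHE40: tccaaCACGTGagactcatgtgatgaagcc
NR1D1: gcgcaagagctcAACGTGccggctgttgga
CRY1: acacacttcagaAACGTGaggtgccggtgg
CRY2: acacatggtaggAACGTGagggggcgggcc

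CIART and NR1D2 held more than 1 copy of CACGTG. CIART had 3 within chr1:150282413-150282514 (plus strand), the last pair separated by 8 bases. NR1D2 had 2 within chr3:23945954-23946033 (plus strand), separated by 44 bases. PER3 and NR1D2 held the D-box letters TTATGTAA, which were present for 1.06% of genes, and CRY2 held the ROR-element letters TAGGTCA, present for 2.01%.
CIART: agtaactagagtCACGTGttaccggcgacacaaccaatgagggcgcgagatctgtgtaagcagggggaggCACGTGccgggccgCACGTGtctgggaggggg
NR1D2: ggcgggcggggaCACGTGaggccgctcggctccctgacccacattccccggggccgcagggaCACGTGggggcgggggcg

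The letters of a glucocorticoid response element, GNACA and TGTNC separated by any 3 bases (its own reverse complement), were searched over the 5000 bases before each start. PER1 was the 1 gene of the 10 that held them, beside 6.97% of all genes. Of the CLOCK partners, ROR receptors and D-box factors named below, only TEF held them, 3618 bases before a start, and TEF fell after dexamethasone. FKBP5 and TSC22D3 both rose, and FKBP5 held these letters while TSC22D3 did not. The PER1 match lay 2069 bases before the RefSeq start at chr17:8154461-8154473, within the annotated PER1 locus and outside its annotated exons. It is shown at chr17:8154452-8154481, minus strand. Matches of letters are descriptions of the reference sequence, and binding was not measured in these data.
PER1: agccaagaGAACATGATGTTCccaagtgcg

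Expression values were read as FPKM, fragments corrected for transcript length and library size, and were scaled between libraries by a trimmed mean. FPKM is per length, so levels of different genes can be compared, but only roughly. Values also varied with GC content between libraries, as described below, and the annotation and use of strand are not given. FKBP5, an established glucocorticoid target, checks the labels: it had 4.00 to 6.76 FPKM in the untreated and 95.4 to 163 FPKM in the dexamethasone libraries. Of the epithelial markers, KRT8, KRT18 and KRT7 were high in every library, at 742 FPKM or more. CDH1, at 5.97 FPKM or more, rose with dexamethasone, and EPCAM was at only 0.153 to 0.705 FPKM. The immune markers PTPRC and CD3E were listed at 0 in all libraries, as was the fibroblast marker COL1A2, and no endothelial marker exceeded 0.134 FPKM. The 3 endothelial markers summed to 0.0641 to 0.17 FPKM untreated and 0 to 0.0312 FPKM treated, with CDH5 at 0.059 to 0.134 and 0 to 0.0092 FPKM, and all 3 were too low to be tested. Summed over the list, 3 immune markers were at 1.95 to 3.22 FPKM untreated and 1.13 to 1.70 FPKM treated, all of it CD14, which fell. The 4 fibroblast markers summed to 1.74 to 2.71 and 0.338 to 0.481 FPKM, mostly COL1A1, which fell. The part of these markers in the results was not tested. A rough estimate of depth from the steps between low values was 24980000 to 28650000 fragments per library. The libraries numbered 5 stood apart from their groups in both conditions. In each of the 2, after scaling, CRY1, CLOCK and NR1D2 had their lowest value of the group, and PER1, CRY2 and NR1D1 their highest. The longest transcripts of the former have 37.2% to 38.3% GC, and those of the latter 57.0% to 62.7%. Before scaling the former were still lowest. Of the latter, untreated replicate 5 was then highest for CRY2 alone. PER1 was at 3.53 FPKM there against 3.84 in replicate 3, and NR1D1 at 4.34 against 4.57. Treated replicate 5 was then the lowest for CRY2, at 3.88 FPKM. Values without both libraries, and with each library's trend on GC content removed, are therefore given beside the results whose call or sign they change or whose size they move by over 1.5 times. Across all tested genes fold changes fell with GC content (rho -0.443 by Spearman's method, over genes that are no independent replicates).

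The 10 genes did not move as a block after dexamethasone. PER1 and CIART rose, BHLHE40 and NR1D1 fell, and the other 6 did not pass the test (limma on log2(FPKM + 1), Benjamini-Hochberg adjusted over 12154 genes). These 4 of 10 compare with 26.8% of all genes called, 12.6% higher and 14.2% lower. In the scaled values the groups did not overlap for the same 4 genes, against 31.4% of all genes, 14.8% higher and 16.6% lower. Before scaling they did not overlap for CRY2 either. In bulk RNA, fewer cells that express a gene and less RNA per cell cannot be told apart. With 1 time point, a lasting change of level and a different phase of a rhythm cannot be told apart either. The median log2 difference of the 10 was 0.08, and that of all tested genes was 0.01. All 10 passed the filter on low values (0.5 FPKM in at least 4 libraries), CIART through its dexamethasone libraries alone, so that it could pass only by differing. Earlier results of these data already showed PER1, CIART and BHLHE40 as changed.

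**Figure D1:**
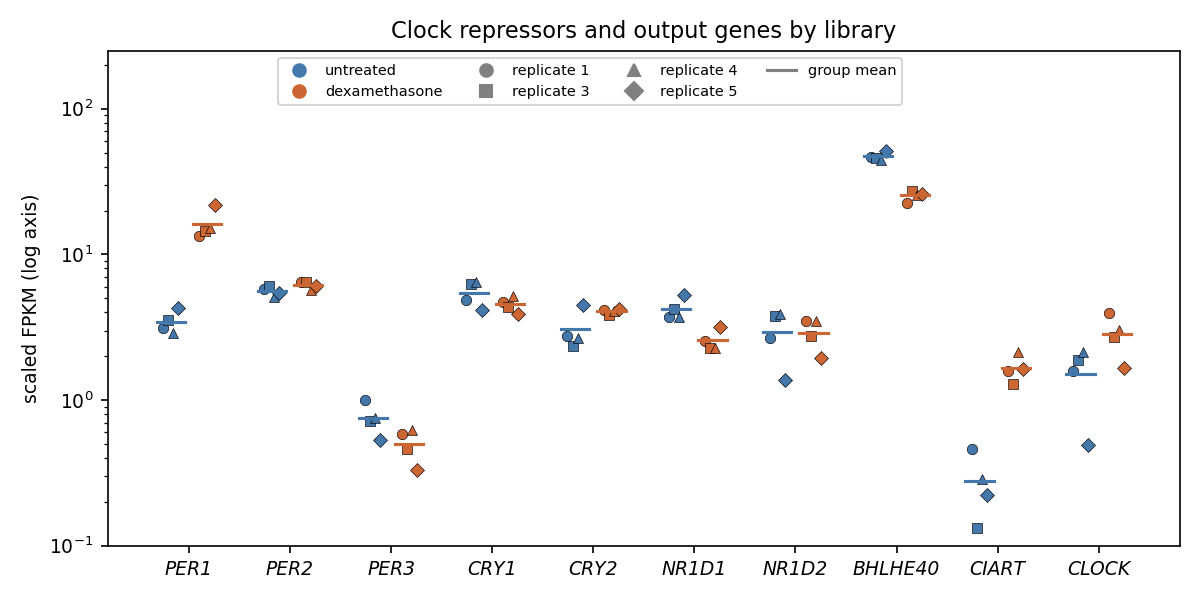
Scaled FPKM (log axis) of the 10 clock genes in each library, with untreated libraries in blue, dexamethasone libraries in orange, a symbol for each replicate number and a line at each group mean. PER1 and CIART lie higher after dexamethasone with no overlap between groups, BHLHE40 and NR1D1 lie lower with no overlap, and the 6 others overlap.

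PER1, the period gene known to respond within hours to glucocorticoids, showed the largest difference among the 10 on this scale. Untreated replicates 1, 3, 4 and 5 had 3.10, 3.53, 2.87 and 4.30 FPKM, and the dexamethasone replicates had 13.4, 14.4, 15.2 and 21.8 FPKM. The lowest treated well was thus above the highest untreated well, and the highest in both groups was replicate 5. The mean rose from 3.45 ± 0.629 to 16.2 ± 3.79 FPKM (mean ± SD, n = 4 per group), a ratio of 4.69, with a log2 difference of 1.94 (SE 0.173, limma adjusted p = 4.45e-05). PER1 overlaps 2 other annotated genes on its own strand, and how shared reads were counted is not given in the sources used here.

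PER2, the paralogue that shares the repressor role, stayed close to its untreated level. It had 5.74, 6.02, 5.13 and 5.41 FPKM in untreated replicates 1, 3, 4 and 5 and 6.44, 6.49, 5.69 and 6.03 FPKM in the treated ones. The groups overlapped, although each treated well was above the untreated well with its number. The log2 difference was 0.12 (95% interval -0.13 to 0.37, limma adjusted p = 0.436), and 0.29 with the GC trend removed (limma adjusted p = 0.094). PER3, the period gene with the weakest role in core timekeeping, was low in both groups, at 0.530 to 0.998 FPKM untreated and 0.329 to 0.627 FPKM treated. Its log2 difference was -0.22 (95% interval -0.46 to 0.02, limma adjusted p = 0.155), and -0.50 with a pseudocount of 0.1 (limma adjusted p = 0.156).

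The makeup of the period family followed from these values. PER1 held 35.2% ± 4.7 of the summed PER FPKM in untreated wells and 70.3% ± 5.2 after dexamethasone (mean ± SD, n = 4 per group). PER2 went from the most abundant, at 57.1% ± 2.85, to 27.5% ± 4.58. The sum was 8.75 to 10.3 FPKM in untreated and 20.4 to 28.1 FPKM in treated libraries. The log2 ratio of PER1 to PER2 within a library was -0.87, -0.75, -0.82 and -0.33 in untreated replicates 1, 3, 4 and 5 and 1.04, 1.14, 1.41 and 1.83 in the treated ones. It changed sign between the groups in every replicate, by 2.05 on average. Its exact permutation p was 0.0286 (two-sided), the smallest that 4 against 4 wells allow, and 0.0667 after adjustment over the 7 ratios computed. PER1 to PER3 changed by 2.69 on the log2 scale with the same p-values, and PER2 to PER3 by 0.64 (exact permutation p = 0.0571, adjusted p = 0.1). No ratio between paralogues passed 0.05 after adjustment, in a design where 1 ratio standing alone could not.

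**Figure D2:**
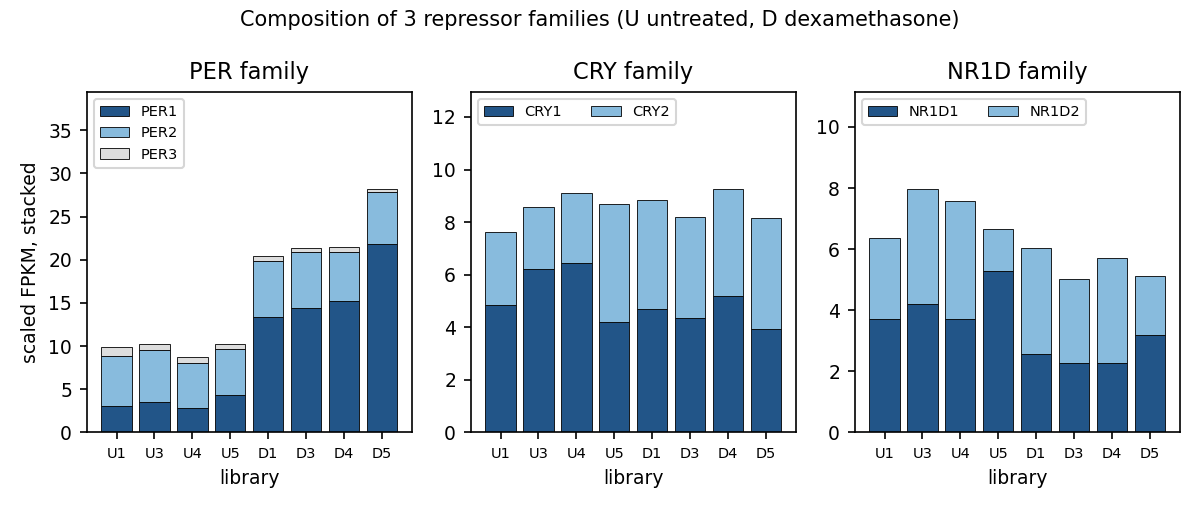
Scaled FPKM of the PER, CRY and NR1D families stacked by gene in each library (U untreated, D dexamethasone, numbers are replicates), with each axis starting at 0. The PER sum is 8.75 to 10.3 FPKM in untreated and 20.4 to 28.1 FPKM in treated libraries, while the CRY sums of the groups overlap. The NR1D sum is 6.38 to 7.96 FPKM in untreated and 5.02 to 6.02 FPKM in treated libraries.

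The cryptochromes, the strongest repressors of CLOCK and BMAL1, did not pass the test when all 8 libraries were used. CRY1 had 4.84, 6.23, 6.43 and 4.18 FPKM in untreated replicates 1, 3, 4 and 5 and 4.69, 4.36, 5.19 and 3.92 FPKM in the treated ones, a log2 difference of -0.20 (SE 0.152, limma adjusted p = 0.352). CRY2 had 2.77, 2.35, 2.66 and 4.50 FPKM untreated and 4.14, 3.84, 4.06 and 4.24 FPKM treated, a log2 difference of 0.34 (SE 0.161, limma adjusted p = 0.145). For CRY2, untreated replicate 5 alone lay above the treated wells, and the other 3 untreated wells lay below all of them. That overlap came with the scaling. Before it, untreated replicate 5 was at 3.70 FPKM and the treated wells at 3.88 to 4.34 FPKM, so the CRY2 groups did not overlap.

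For CRY2 the call depended on how the libraries numbered 5 and GC content were treated, and for CRY1 on GC content alone. Without those 2 libraries CRY2 rose by 0.49 (limma adjusted p = 0.00375), and without untreated replicate 5 alone also by 0.49 (limma adjusted p = 0.00516). With the GC trend removed, CRY2 rose by 0.55 (limma adjusted p = 0.00166) and CRY1 fell by 0.54 on the log2 scale (limma adjusted p = 0.00278). That fit called 6 of the 10 genes, where 36.7% of all genes were called. Without the libraries numbered 5 it was also 6 (CRY2 and CLOCK in addition to the 4), where 45.2% of all genes were called. The summed CRY level was 7.61 to 9.09 FPKM in untreated and 8.16 to 9.26 FPKM in treated libraries, and these ranges overlap. CRY1 made up 63.7% ± 11.1 of it before and 52.6% ± 3.35 after dexamethasone (mean ± SD, n = 4 per group), and the log2 ratio of CRY1 to CRY2 changed by -0.67 (exact permutation p = 0.114, adjusted over 7 ratios p = 0.16).

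NR1D1, which encodes REV-ERB alpha, fell, and NR1D2, which encodes REV-ERB beta, did not pass the test. NR1D1 had 3.70, 4.21, 3.72 and 5.29 FPKM in untreated replicates 1, 3, 4 and 5 and 2.55, 2.27, 2.26 and 3.19 FPKM in the treated ones. Every treated well was below every untreated well. The mean went from 4.23 ± 0.744 to 2.57 ± 0.435 FPKM (mean ± SD, n = 4 per group), a log2 difference of -0.55 (SE 0.142, limma adjusted p = 0.0183). The call was lost without dexamethasone replicate 3 (limma adjusted p = 0.0624) or 4 (limma adjusted p = 0.0626), at -0.51 in each case, and the size was smaller with the GC trend removed, at -0.32 (limma adjusted p = 0.0211).

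NR1D1 overlaps THRA, the thyroid hormone receptor alpha gene, on the opposite strand, and whether the authors' counting used strand is not stated. THRA moved the other way, from 10.4 ± 3.03 to 24.0 ± 3.97 FPKM (mean ± SD, n = 4 per group), a log2 difference of 1.15 (SE 0.191, limma adjusted p = 0.0019). NR1D2 had 2.67, 3.75, 3.87 and 1.38 FPKM in untreated replicates 1, 3, 4 and 5 and 3.47, 2.75, 3.46 and 1.93 FPKM in the treated ones. Its log2 difference was 0.03 (95% interval -0.51 to 0.57, limma adjusted p = 0.94), and the sign was negative without both libraries numbered 5 (-0.06) and with the GC trend removed (-0.28, limma adjusted p = 0.0553). The log2 ratio of NR1D1 to NR1D2 changed by -0.76 (exact permutation p = 0.2, adjusted p = 0.2), less than the untreated SD of 0.865. NR1D2 overlaps NKIRAS1 on the opposite strand (log2 difference 0.43, limma adjusted p = 0.0831).

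BHLHE40, or DEC1, which competes with CLOCK and BMAL1 at E-boxes and also responds to hypoxia and growth signals, was by far the most abundant of the 10. Untreated replicates 1, 3, 4 and 5 had 46.9, 46.2, 44.5 and 51.3 FPKM, and the treated ones had 22.7, 27.3, 25.5 and 26.0 FPKM. The groups were tight and well separated. The mean fell from 47.2 ± 2.88 to 25.4 ± 1.92 FPKM (mean ± SD, n = 4 per group), a log2 difference of -0.87 (SE 0.118, limma adjusted p = 0.000495), and with the GC trend removed it was -0.79. BHLHE41, the paralogue DEC2, was at 0.0632 to 0.285 FPKM untreated and 0.0296 to 0.376 FPKM treated, too low to be tested. BHLHE40 overlaps its antisense gene BHLHE40-AS1 on the opposite strand.

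CIART, the repressor with 3 E-boxes shown above, was the scarcest of the 10 in untreated cells. It had 0.460, 0.133, 0.287 and 0.224 FPKM in untreated replicates 1, 3, 4 and 5 and 1.58, 1.28, 2.13 and 1.64 FPKM in the treated ones. Each treated well was above every untreated well. The mean rose from 0.276 ± 0.138 to 1.66 ± 0.353 FPKM (mean ± SD, n = 4 per group), a ratio of 6, which exceeds that of PER1. Its log2 difference was 1.05 with the pseudocount of 1 (SE 0.12, limma adjusted p = 0.000206). With a pseudocount of 0.1 it was larger, at 2.28 (limma adjusted p = 0.000369), because adding 1 shrinks the change of so low a gene. CIART passed the filter on low values through its treated libraries alone, so it was tested only because they were higher. With no filter the difference was 1.05 (limma adjusted p = 0.00056).

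CLOCK, the activator among the 10, had a wide spread in both groups and did not pass the test. It had 1.58, 1.87, 2.12 and 0.489 FPKM in untreated replicates 1, 3, 4 and 5 and 3.98, 2.7, 3.04 and 1.65 FPKM in the treated ones. Treated replicate 5 fell inside the untreated range, while the other 3 treated wells lay above it. The log2 difference was 0.63 (SE 0.259, limma adjusted p = 0.103). It passed without both libraries numbered 5, at 0.58 (limma adjusted p = 0.0117), and without dexamethasone replicate 5 alone, at 0.80 (limma adjusted p = 0.0426), and with the GC trend removed it was 0.30 (limma adjusted p = 0.0723). TMEM165, which overlaps CLOCK on the opposite strand, rose from 18.4 ± 1.47 to 30.6 ± 3.73 FPKM (mean ± SD, n = 4 per group, log2 difference 0.70, limma adjusted p = 0.0034).

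**Figure D3:**
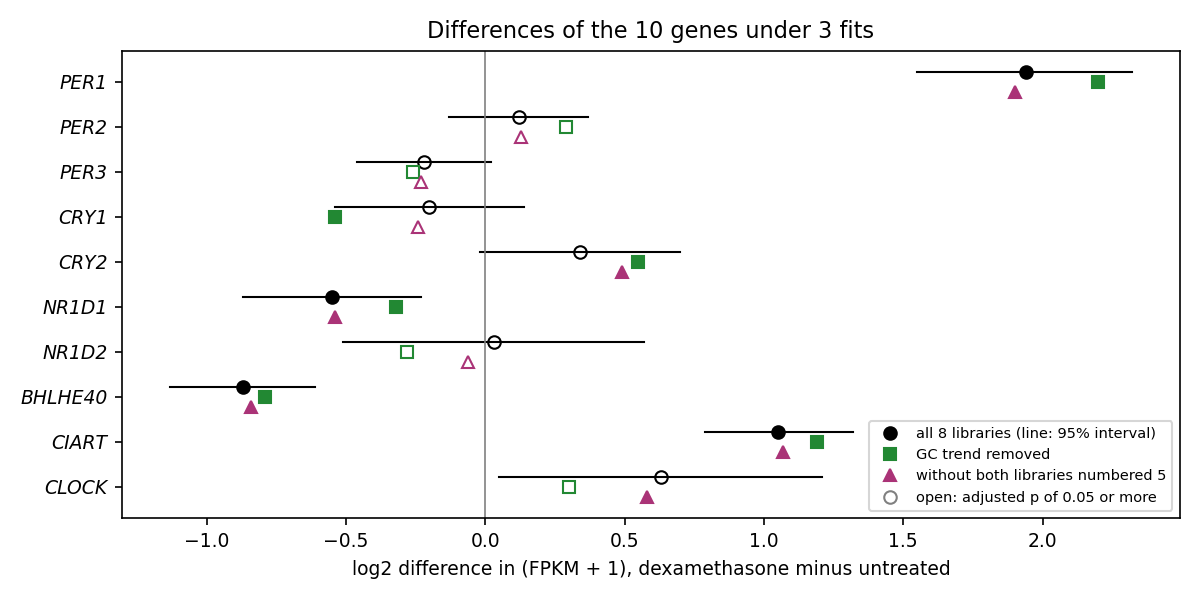
Log2 difference in FPKM + 1 (dexamethasone minus untreated) of each of the 10 genes in the fit of all 8 libraries (circles, with 95% intervals), with the GC trend removed (squares) and without both libraries numbered 5 (triangles). Filled symbols have an adjusted p under 0.05: PER1, CIART, BHLHE40 and NR1D1 are filled in all 3 fits, CRY2 in the latter 2, CRY1 with the GC trend removed and CLOCK without the libraries numbered 5.

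The order of the levels differed between the groups: PER1 went from the 5th to the 2nd place and NR1D1 from the 4th to the 8th. In untreated cells BHLHE40 (47.2 FPKM) stood clear of the rest, and from PER2 (5.58) through CRY1 (5.42), NR1D1 (4.23), PER1 (3.45), CRY2 (3.07), NR1D2 (2.92), CLOCK (1.51) and PER3 (0.749) each gene overlapped the next in its 4 values. CIART (0.276) lay clear below them. After dexamethasone the order was BHLHE40 (25.4), PER1 (16.2), PER2 (6.16) and CRY1 (4.54), with no overlap between neighbours, then CRY2 (4.07), which overlapped CRY1. NR1D2 (2.90), CLOCK (2.84) and NR1D1 (2.57) followed and overlapped in turn, and CIART (1.66) and PER3 (0.5) came last, clear of each other.

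The partners of CLOCK differed among themselves. BMAL1, listed under its older symbol ARNTL, had 6.55, 5.52, 6.37 and 4.97 FPKM in untreated replicates 1, 3, 4 and 5 and 8.75, 9.31, 10.8 and 6.07 FPKM in the treated ones. Treated replicate 5 lay within the untreated range, and the log2 difference of 0.49 did not pass (SE 0.172, limma adjusted p = 0.0627), but it passed without both libraries numbered 5, at 0.58 (limma adjusted p = 0.00362), and without dexamethasone replicate 5 alone, at 0.63 (limma adjusted p = 0.0117). With the GC trend removed it was 0.33 and did not pass (limma adjusted p = 0.0708). NPAS2, the paralogue of CLOCK, fell from 34.3 ± 7.35 to 19.1 ± 2.03 FPKM (mean ± SD, n = 4 per group), a log2 difference of -0.80 (SE 0.161, limma adjusted p = 0.00551). BMAL2, listed as ARNTL2, fell from 8.28 ± 2.74 to 4.2 ± 0.75 FPKM, a log2 difference of -0.79 (SE 0.241, limma adjusted p = 0.0381). Its groups overlapped through untreated replicate 5, and 7 of the 8 fits that left out 1 library lost the call, as did those with no filter and with no scaling.

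NPAS2 was thus far more abundant than CLOCK in every well. The log2 ratio of CLOCK to NPAS2 was -4.75, -3.89, -3.86 and -5.70 in untreated replicates 1, 3, 4 and 5 and -2.02, -2.90, -2.72 and -3.42 in the treated ones. Every treated value was above every untreated one. The mean difference was 1.79 (exact permutation p = 0.0286, adjusted over 7 ratios p = 0.0667).

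Of the ROR receptors, which activate BMAL1 at the elements where REV-ERB represses it, RORA was tested. It was at 0.924 to 1.46 FPKM untreated and 1.19 to 2.02 FPKM treated (log2 difference 0.21, limma adjusted p = 0.252), with the opposite sign, at -0.16, once the GC trend was removed. RORB was listed at 0 in all libraries.

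Of the 4 D-box factors, 1 rose and 1 fell, beside 12.6% and 14.2% of all genes. NFIL3, or E4BP4, the repressor at D-boxes, rose from 4.33 ± 0.663 to 7.24 ± 0.181 FPKM (mean ± SD, n = 4 per group), a log2 difference of 0.64 (SE 0.127, limma adjusted p = 0.00498). TEF, an activator at D-boxes, fell from 1.35 ± 0.282 to 0.671 ± 0.087 FPKM, a log2 difference of -0.49 (SE 0.104, limma adjusted p = 0.00728). The TEF difference was -0.29 with the GC trend removed (limma adjusted p = 0.0322) and -0.90 with a pseudocount of 0.1 (limma adjusted p = 0.00727). For both NFIL3 and TEF the groups did not overlap. DBP, the classical E-box output gene, had untreated values of 2.51, 2.64, 2.78 and 5.17 FPKM (replicate 5 the highest) and treated values of 2.42 to 3.59 FPKM (log2 difference -0.11, limma adjusted p = 0.71). Its sign was positive without untreated replicate 5 (0.07), without both libraries numbered 5 (0.01) and with the GC trend removed (0.11). HLF, a further activator, was at 0.191 to 0.668 FPKM untreated and 0.497 to 1.10 FPKM treated (log2 difference 0.34, limma adjusted p = 0.0899). It passed without untreated replicate 4, at 0.43 (limma adjusted p = 0.0438), and without dexamethasone replicate 5, at 0.42 (limma adjusted p = 0.048). With the GC trend removed the HLF difference was 0.19 (limma adjusted p = 0.238).

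**Figure D4:**
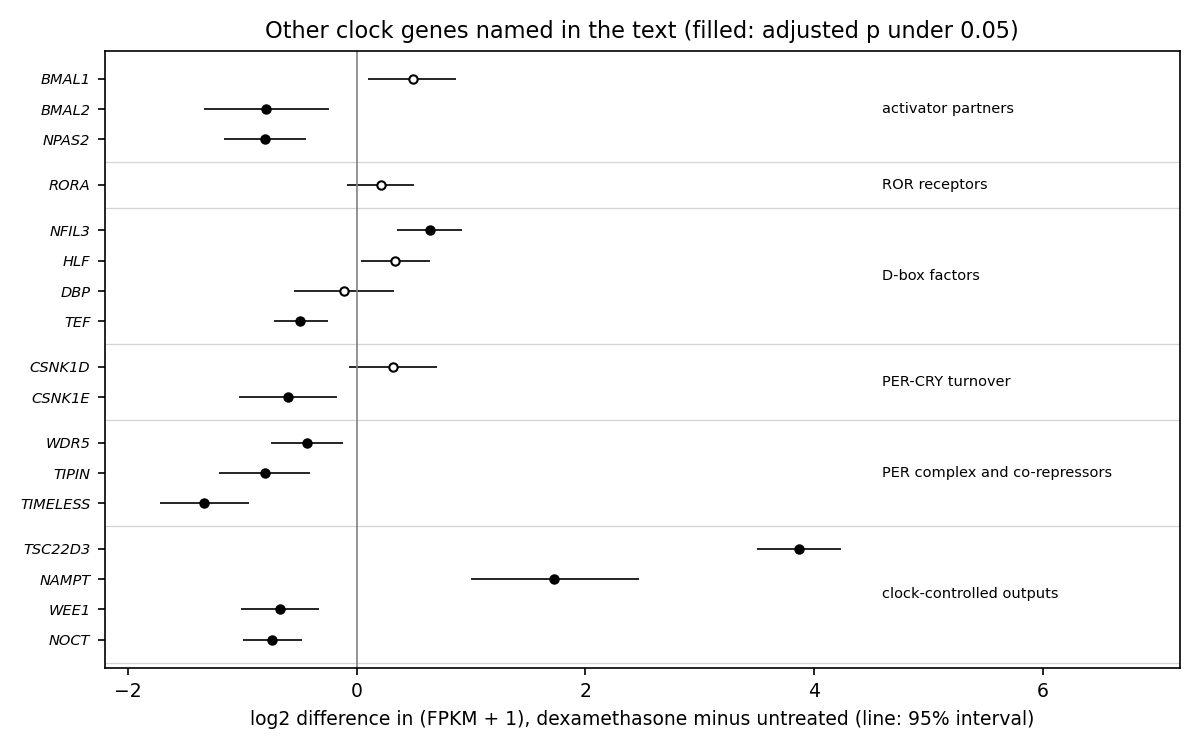
Log2 difference in FPKM + 1 (dexamethasone minus untreated, with 95% intervals) of the 17 other tested clock genes named in the text, ordered within each list, filled where the adjusted p is under 0.05. TSC22D3, NAMPT and NFIL3 are the 3 filled genes to the right of 0, and 9 filled genes lie to the left.

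Across all the other clock genes listed, 37 of 42 were tested, and 13 were called, 4 higher and 9 lower, beside the 12.6% and 14.2% of all genes. The median log2 difference was -0.06. With the GC trend removed 7 were higher and 10 lower, where 18.3% and 18.4% of all genes were called, and without both libraries numbered 5 there were 9 higher and 10 lower, where 22.7% and 22.6% were.

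Of the genes that act on the turnover of PER and CRY, 11 of 13 were tested and 1 was called, lower. Of all genes, 26.8% were called in either direction and 14.2% lower. CSNK1E, which encodes casein kinase 1 epsilon, fell from 37.9 ± 4.79 to 25.1 ± 6.4 FPKM (mean ± SD, n = 4 per group), a log2 difference of -0.60 (SE 0.191, limma adjusted p = 0.0446). The call was lost in 6 of the 8 fits that left out 1 library and without the filter, the difference was -0.38 with the GC trend removed, and CSNK1E shares its strand with a read-through transcript. CSNK1D, which encodes the delta isoform, had a log2 difference of 0.32 (limma adjusted p = 0.196).

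All 11 genes of the PER complex and its co-repressors were tested, and 3 were called, all lower. Of all genes, 26.8% were called in either direction and 14.2% lower. TIMELESS, which also acts at DNA replication forks, fell from 31.4 ± 6.3 to 11.9 ± 2.3 FPKM (mean ± SD, n = 4 per group), a log2 difference of -1.33 (SE 0.172, limma adjusted p = 0.000429). Its fork partner TIPIN fell from 10.6 ± 2.04 to 5.64 ± 1.01 FPKM, a log2 difference of -0.80 (SE 0.175, limma adjusted p = 0.00802). WDR5, a histone methyltransferase subunit, had a log2 difference of -0.43 (SE 0.14, limma adjusted p = 0.045), 6 of the 8 fits that left out 1 library lost that call, and with the GC trend removed it was -0.24.

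The clock-controlled outputs moved in both directions, with 5 of 7 called (3 higher and 2 lower), beside 26.8% of all genes. NAMPT, the rate-limiting enzyme of NAD salvage, rose from 24.5 ± 10.2 to 79.4 ± 18.7 FPKM (mean ± SD, n = 4 per group), a log2 difference of 1.73 (SE 0.329, limma adjusted p = 0.00398). TSC22D3, the glucocorticoid-induced leucine zipper, rose from 6.19 ± 1.49 to 102 ± 5.33 FPKM. NOCT, a rhythmic phosphatase also called nocturnin, fell from 10.1 ± 0.368 to 5.71 ± 0.568 FPKM, a log2 difference of -0.74 (SE 0.115, limma adjusted p = 0.00122). WEE1, a mitotic checkpoint kinase named after its values were seen, fell from 13.7 ± 2.49 to 8.20 ± 0.957 FPKM, a log2 difference of -0.67 (SE 0.153, limma adjusted p = 0.0103). NAMPT and TSC22D3 are known glucocorticoid-responsive genes as well, and TSC22D3 was also listed beforehand, like FKBP5, as a check of the treatment label. The count of 5 of 7 is therefore not a measure of clock control alone.

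The genes whose values over the 8 libraries ran most nearly parallel to each changed clock gene were taken from the 12153 other tested genes by Pearson's r of log2(FPKM + 1). For PER1 these were MYL2 (r = 0.997) and MT1X (r = 0.996), and the most opposite were CGAS (r = -0.996) and WDR45B (r = -0.994). For BHLHE40 they were PLAU (r = 0.998) and PFKFB3 (r = 0.997), and the most opposite were ESD and UQCRC2 (r = -0.997 each). For NR1D1 they were CCND3 (r = 0.991) and PHLDB1 (r = 0.990), and for CIART they were BPNT1 (r = 0.984) and DDC (r = 0.983). The difference between the groups carries most of such an r, so these are descriptions of 8 libraries that share 1 contrast. PLAU fell from 70.5 ± 5.61 to 28.4 ± 3.15 FPKM (mean ± SD, n = 4 per group) and MT1X rose from 30.7 ± 11.9 to 290 ± 87.4 FPKM. MYL2 was near 0 untreated, at 0.0291 ± 0.0581 FPKM, and at 1.03 ± 0.245 FPKM treated. It passed the filter on low values through its dexamethasone libraries alone.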

How the data were processed

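Total RNA from 4 untreated and 4 dexamethasone-treated wells was sequenced after ribosomal RNA depletion. Per the series' design text and the submitters' processing notes, the authors used FastQC 0.11.9, Cutadapt 3.4, STAR 2.7.9a on GRCh38, featureCounts (Subread 2.0.3) and DESeq2 1.32.0. The deposited values are described as counts but are not whole numbers. The values deposited by the authors were taken to be FPKM, because their sums differed between libraries (338989 to 373855) and, multiplied by transcript length, came to 1014750049 to 1106152249, close to the length-weighted sum that the definition of FPKM fixes. The step that made them, the annotation and the use of strand are not given in the sources used here. Only 45.8% to 51.3% of low values lay within 0.1 of whole fragments, so no count test was run.

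Libraries were divided by trimmed-mean factors (0.8205 for untreated replicate 5, 0.9152 to 1.085 for the others, trimming 0.3 of M and 0.05 of A values per side). The tests ran in R 4.3.3 with limma 3.58.1 (trend, robust, two-sided) on log2(FPKM + 1), with group as the only term, on genes with 0.5 FPKM in at least 4 libraries (3 where a library was left out). The call was an adjusted p under 0.05. A fold change on this scale understates low genes. The GC trend was removed per library by lowess on the GC content of the longest GENCODE v44 transcript. Ratios of paralogues used a pseudocount of 0.1 and exact permutation over libraries. The procedure was tested on simulated data. The 10 genes and all lists were chosen with earlier results of these data known. Named were all 10 genes, all activator partners, ROR and D-box genes, up to 4 called genes of each other list with the smallest p, and the genes most alike by r. CSNK1D and WEE1 were added after their values were seen. Some listed genes are not reported here. Alternatives were another pseudocount, no filter, other scalings, a replicate block, GC correction and fits without single libraries. Promoters are from RefSeq, all 10 genes matched by symbol, and the 5000-base windows are from hg38.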

Additional observations from a re-analysis of the deposited data

Results flagged for a closer look

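Among 71 groups of 4 values, 4 had a well far from the other 3, about as many as the 4 that chance gives at 1 in 20, and all 4 were untreated replicate 5. DBP was at 5.17 FPKM there and at 2.51 to 2.78 FPKM in the other untreated wells. TIMELESS was at 40.9 FPKM against 27.8 to 28.8 FPKM. WDR5 was at 36.4 FPKM against 28.4 to 29 FPKM, and CSNK1E at 45 FPKM against 34.6 to 36.2 FPKM. None of the 10 clock genes of the main comparison was among them.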

How the results depend on the processing

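PER1, CIART and BHLHE40 kept their direction and their call in all 16 alternative fits, at log2 differences of 1.80 to 2.20, 0.97 to 2.28 and -0.91 to -0.79. Of the 10 clock genes, 2 were called higher, beside 12.6% of all genes. This was 4 without both libraries numbered 5 (22.7% of all genes) and 5 with the replicate block and the GC trend removed together (22.1%). The 2 called lower became 5 in that joint fit, so all 10 were called there, beside 44.1% of all genes. Leaving out 1 library gave 2 to 3 higher and 1 to 2 lower, where 8.59% to 14.3% and 10.1% to 17.2% of all genes were called. The other clock genes called higher, 4, became 11 with the replicate block, where 24% of all genes were called higher. They were 7 with the GC trend removed (18.3% of all genes), 8 with both (22.1%) and 9 without the libraries numbered 5 (22.7%). When 1 library was left out they were 4 to 7, beside 8.59% to 14.3% of all genes. Those called lower ranged from 6 to 12, where 10.1% to 23.3% of all genes were called lower. NR1D2 turned to -0.28 with the GC trend removed, with or without the replicate block, -0.21 without untreated replicate 5, -0.04 without dexamethasone replicate 1 or 4, and -0.06 without both libraries numbered 5, and over fits without 1 library it ran from -0.21 to 0.16. RORA turned to -0.16 with the GC trend removed, with or without the block. DBP turned to 0.11 in both of these fits, to 0.07 without untreated replicate 5 and to 0.01 without both libraries numbered 5, and ran from -0.19 to 0.07 over fits without 1 library. For these reversals the cause was not tested. The replicate block alone added calls, among them HLF, CLOCK (0.63, limma adjusted p = 0.00589) and BMAL1 (0.49, limma adjusted p = 0.0101). It raised the called genes from 3259 (26.8%) to 5740 (47.2%). There were 5355 (44.1%) with the GC trend also removed and 5534 without both libraries numbered 5. By their labels, wells of 1 number share only that number. Their deviations correlated at 0.294, 0.067, 0.315 and 0.714 for numbers 1, 3, 4 and 5, so the wells numbered 5 were alike. Untreated wells 3 and 4 correlated best with treated well 1 (0.434 and 0.425), as did untreated well 1 (0.294). Read from the treated side, wells 3, 4 and 5 correlated best with the untreated well of their own number (0.067, 0.315 and 0.714). The numbers were not taken to pair the wells in the main fit. Ratios between paralogues kept their sign in all 11 alternatives run; exact tests with a well left out or within numbers cannot reach 0.05. Changes of low genes such as CIART and PER3 are limited by depth.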
